A study of Homo sapiens with 6 samples.

Results

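The 45 genes described here encode the subunits of RNA polymerases I, II and III and the factors that bring polymerases I and III to their promoters. They were chosen by name, as the rows of the deposited count and FPKM tables that carry one of 45 listed gene symbols, and all 45 were found among the 58735 genes of the tables. Of these, 12 belong to polymerase I only (6 subunits and 6 factors), 7 to polymerase II only (all subunits), 19 to polymerase III only (9 subunits and 10 factors), and 7 are subunits used by more than 1 polymerase. All 45 were expressed above the filter on low counts, which 14179 genes passed. The cells were H2452, an established human pleural mesothelioma line labelled as tumor tissue, grown in RPMI-1640 with fetal bovine serum. The 3 sgCtrl libraries (genotype WT) came from cells given a scrambled sgRNA and the 3 sg*NF2*-1 libraries (NF2 knockout) from cells given an sgRNA against *NF2*, which encodes the Hippo pathway regulator merlin.

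Both groups carried a lentiviral vector that expresses Cas9 and mCherry. Only 1 *NF2* guide in 1 cell line was sequenced. The study's methods call its replicates biological in general, but neither they nor the labels say whether these libraries came from separate cultures, so p-values measure only the spread between these libraries, which may be in part technical. *NF2* itself was counted 1162, 1197 and 1025 times in sgCtrl against 692, 802 and 590 times in sg*NF2*-1, a 1.61-fold lower level with adjusted p = 7.9e-06 (edgeR's quasi-likelihood test). Totals ran from 14782423 to 17416463 counts per library, and the mitochondrial share was 2.65 to 3.69% in sgCtrl and 3.67 to 4.67% in sg*NF2*-1. The first principal component held 65.2% of the variance and separated the groups. Of 8 mesothelial markers, the keratin genes *KRT8* and *KRT18* were high in every library (12233 counts or more). Mesothelin (*MSLN*) rose from 36.4 to 57.6 CPM and *KRT7* from 236 to 543 CPM, whereas *KRT19* fell from 566 to 296 CPM and *WT1* from 10.0 to 4.86 CPM, and *CALB2* and *UPK3B* averaged at most 4.33 CPM. Among markers of other cell types, *PTPRC* (leukocytes), *DCN* and *LUM* (fibroblasts) were at 0 counts in all libraries, and *CD3E*, *CD68*, *LYZ*, *VWF*, *KDR* and *PDGFRA* had at most 5 counts in any. *CDH5* (endothelium) had 9 to 24 counts, while *CD14* (monocytes) fell from 139 to 66.9 CPM, *COL1A1* (fibroblasts) from 7.92 to 1.04 CPM and *PECAM1* (endothelium) from 6.31 to 1.296 CPM. Whether such differences have a part in the results on polymerase genes was not tested.

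RNA polymerase I transcribes the precursor of the large ribosomal RNAs in the nucleolus, polymerase II transcribes messenger RNAs, and polymerase III transcribes 5S rRNA, transfer RNAs and other short RNAs. Each is built on a pair of large catalytic subunits, shares a set of small subunits with the others, and adds subunits of its own. Polymerase I is recruited by the factor UBF, the SL1 complex and RRN3, and polymerase III by TFIIIC and TFIIIB, while MAF1 represses polymerase III. Because growing cells make large amounts of ribosomes and transfer RNAs, these enzymes are commonly studied in cancer cells.

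The members that passed the test were mostly higher in sg*NF2*-1, and the share called as higher was largest among the polymerase I genes. With a threshold of 0.05 on the adjusted p, 15 of the 45 members rose and 2 fell (edgeR's quasi-likelihood test, adjusted over all tested genes). Among all 14179 genes, 34.3% were called, 17.7% as higher and 16.6% as lower. The share of members called in either direction, 37.8%, was thus near that of all genes, whereas the members divided into 33.3% higher and 4.44% lower. The median log2 fold change of sg*NF2*-1 against sgCtrl was 0.14 over the members and -0.0025 over all tested genes. By groups, 6 of 12 polymerase I genes (50%) and 6 of 19 polymerase III genes (31.6%) were higher. So were 1 of 7 polymerase II genes (14.3%) and 2 of 7 shared subunits (28.6%). The 2 lower members were the polymerase II subunit *POLR2B* and the shared subunit *POLR2L*. Median log2 fold changes were 0.33 for polymerase I, 0.09 for polymerase II, 0.09 for polymerase III and 0.11 for the shared subunits. With a log2 fold change beyond 0.5 also required, 6 members were higher and 1 lower, against 8.42% and 9.32% of all genes. With an unadjusted p under 0.05 and that fold limit the members' counts were the same, 6 and 1, against 9.22% and 10.8% of all genes. In 18 members (40.0%) the 3 libraries of one group all lay beyond those of the other, and so they did in 45.3% of all genes. The sg*NF2*-1 libraries were above in 16 members and below in 2, against 23.2% and 22.2% of all genes. In these bulk libraries a change in the RNA of each cell and a change in the share of cells that express a gene cannot be told apart.

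**Figure D1:**
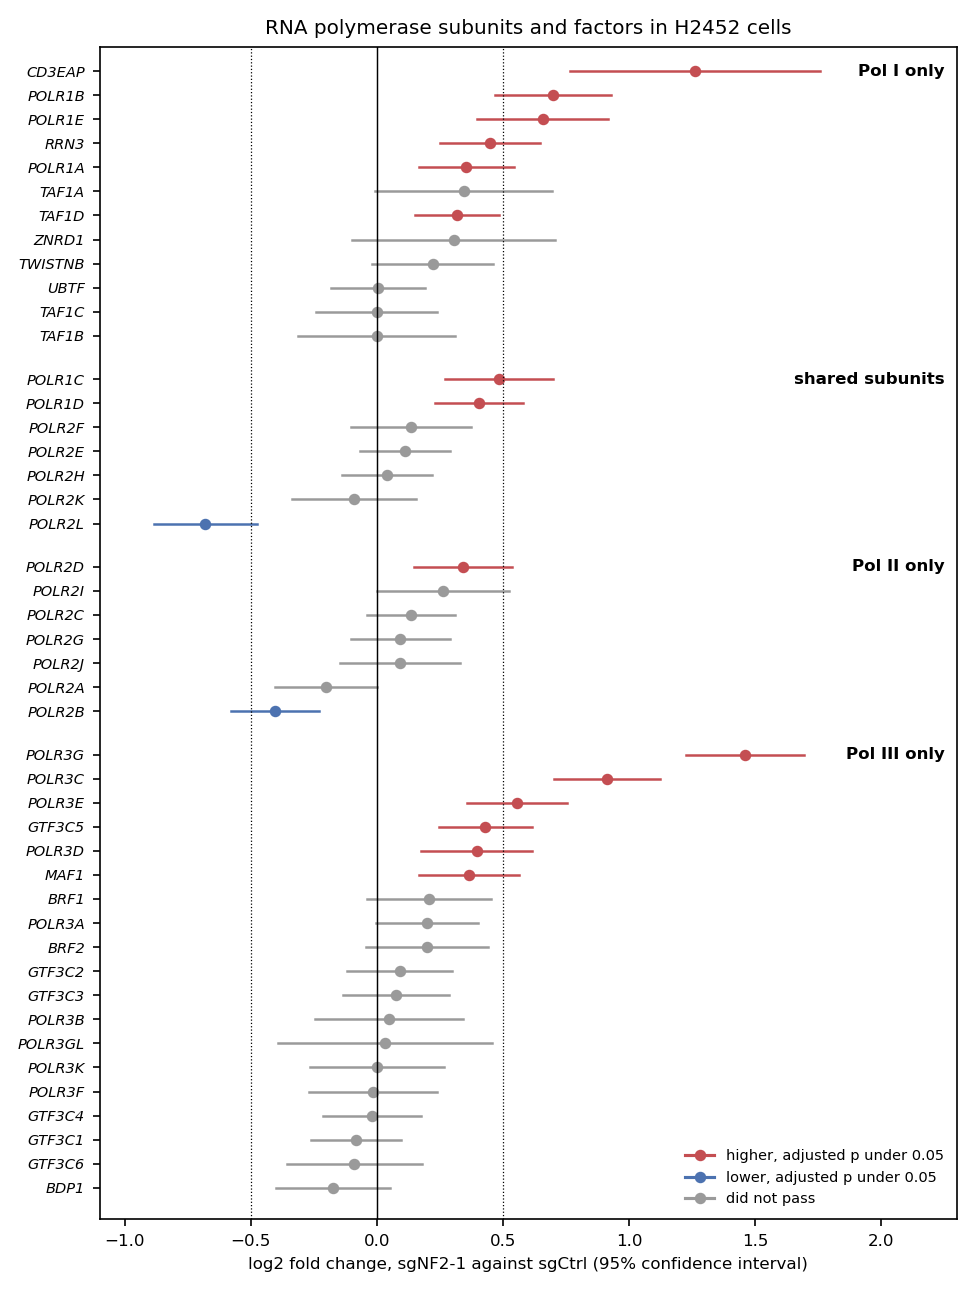
The plot gives the log2 fold change of each of the 45 members, sg*NF2*-1 against sgCtrl, as a point with its 95% confidence interval, grouped by polymerase and coloured by call, with dotted lines at -0.5 and 0.5. *POLR3G* and *CD3EAP* lie farthest to the right (1.46 and 1.26) and *POLR2L* farthest to the left (-0.68).

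Of the 6 polymerase I subunits, 4 rose and 0 fell. *CD3EAP* (now *POLR1G*) and *POLR1E* encode the paired subunits PAF49 and PAF53, a TFIIF-like dimer on the polymerase I core. *CD3EAP* (ENSG00000117877, hg38, chromosome 19, 45406209 to 45410766) was the lowest member per gene length (FPKM), with 36, 27 and 37 counts in sgCtrl and 92, 83 and 66 in sg*NF2*-1. On the scale of CPM (the count relative to the TMM-scaled library size) it had 2.28, 1.64 and 2.44 in sgCtrl against 5.23, 5.38 and 4.63 in sg*NF2*-1. The groups did not overlap, and the level was 2.40-fold higher (log2 fold change 1.26 ± 0.24 SE, adjusted p = 0.00022, edgeR). Of its exonic bases, 45.1% are shared with other genes, mostly *ERCC1* on the opposite strand (mean 706 counts), whose log2 fold change was 0.28. *PPP1R13L*, also on the opposite strand (mean 544 counts), shares 1.58% of them and had a log2 fold change of 0.97. The sources used here do not state whether counting used strand.

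*POLR1E* (ENSG00000137054, chromosome 9, 37485935 to 37503697) had 17.1, 18.2 and 21.9 CPM in sgCtrl against 28.98, 26.4 and 34.8 CPM in sg*NF2*-1. Its lowest sg*NF2*-1 library was above the highest sgCtrl library, with a log2 fold change of 0.66 ± 0.13 (SE, adjusted p = 0.00023, edgeR). The catalytic core is formed by *POLR1A*, the largest subunit, and *POLR1B*, the second largest. *POLR1B* (ENSG00000125630, chromosome 2, 112541915 to 112577150) had 28.6, 39.4 and 35.3 CPM in sgCtrl against 61.9, 55.3 and 50.3 CPM in sg*NF2*-1. It shares no exonic base with another gene and was 1.62-fold higher (log2 fold change 0.70 ± 0.11 SE, adjusted p = 2.6e-05, edgeR). *POLR1A* rose less, from 52.6, 57.5 and 48.8 CPM to 66.3, 71.7 and 65.2 CPM, again without overlap (log2 fold change 0.35 ± 0.09 SE, adjusted p = 0.0039, edgeR). The remaining subunits did not pass the test: *TWISTNB* (*POLR1F*), in the stalk that binds RRN3, had a log2 fold change of 0.22 (95% confidence interval -0.02 to 0.46), and *ZNRD1* (*POLR1H*), which takes part in RNA cleavage, had 0.30 (-0.10 to 0.71).

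Among the polymerase I factors, 2 of 6 rose. *RRN3* (TIF-IA), which makes polymerase I competent to initiate, had 44.5, 43.0 and 45.01 CPM in sgCtrl against 67.2, 58.4 and 55.0 CPM in sg*NF2*-1. The narrow sgCtrl range lay wholly below the sg*NF2*-1 libraries (log2 fold change 0.45 ± 0.10 SE, adjusted p = 0.00068, edgeR). Its near-identical copies *RRN3P1* and *RRN3P3* held at most 49 counts in any library. *UBTF*, which encodes the ribosomal DNA binding factor UBF, had 118, 104 and 98.3 CPM in sgCtrl against 106, 97.4 and 117 CPM in sg*NF2*-1. The groups overlapped, and the 95% confidence interval of its log2 fold change was -0.18 to 0.19. Of the SL1 subunits, *TAF1D* rose from a mean of 99.5 to 124 CPM (log2 fold change 0.32 ± 0.08 SE, adjusted p = 0.0032, edgeR), though its exons contain 8 small RNA genes counted at 0. *TAF1A*, *TAF1B* and *TAF1C* did not pass, with intervals of -0.01 to 0.70, -0.31 to 0.31 and -0.24 to 0.24 for the log2 fold change.

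Polymerase III showed the member with the largest rise, *POLR3G*. It encodes RPC7, one of 3 subunits that form the initiation subcomplex of polymerase III together with *POLR3C* (RPC3) and *POLR3F* (RPC6), and is known for high expression in pluripotent and transformed cells. *POLR3G* (ENSG00000113356, chromosome 5, 90471748 to 90514553) had 24.6, 20.8 and 30.1 CPM in sgCtrl against 63.5, 71.1 and 72.8 CPM in sg*NF2*-1. Every sg*NF2*-1 library lay far above the highest sgCtrl library. The level was 2.75-fold higher (log2 fold change 1.46 ± 0.11 SE, adjusted p = 3.9e-10, edgeR), and *POLR3G* stood at place 124 among the 14179 genes ordered by log2 fold change. *MBLAC2*, on the opposite strand, shares 6.47% of the exonic bases and had a log2 fold change of 0.63. Of the 20 tested genes nearest to *POLR3G*, 2 were higher and 7 lower, beside 17.7% and 16.6% of all genes. Their median log2 fold change was -0.20.

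*POLR3C* (ENSG00000186141, chromosome 1, 145824088 to 145842505) had 25.8, 32.4 and 31.4 CPM in sgCtrl against 57.1, 56.0 and 55.5 CPM in sg*NF2*-1. The sg*NF2*-1 libraries were close to each other and far above sgCtrl, by 1.88-fold (log2 fold change 0.91 ± 0.10 SE, adjusted p = 1.4e-07, edgeR). *POLR3F*, the third subunit of this subcomplex, had a mean of 15.8 ± 0.79 CPM in sgCtrl against 15.6 ± 0.51 CPM in sg*NF2*-1 (SD, n = 3), with an interval of -0.27 to 0.24 for its log2 fold change. In FPKM, the level per gene length, *POLR3C* was 1.82, 2.10 and 2.02 times *POLR3F* in the sgCtrl libraries and 3.71, 3.85 and 3.80 times in the sg*NF2*-1 libraries. This pair was chosen after the values were seen and its ratio is given without a test.

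*POLR3GL* encodes a paralog that takes the place of POLR3G in the enzyme. It was low in both groups, with 5.84, 5.48 and 4.42 CPM in sgCtrl against 6.71, 4.47 and 4.85 CPM in sg*NF2*-1. The groups overlapped, and the interval of its log2 fold change, -0.39 to 0.46, was wide and did not reach the rise of *POLR3G*. The FPKM ratio of *POLR3G* to *POLR3GL* was 1.88, 1.70 and 3.05 in sgCtrl and 4.24, 7.12 and 6.73 in sg*NF2*-1. All 3 sg*NF2*-1 ratios were higher (log2 difference 1.46 ± 0.35 SE), with a two-sided exact permutation p of 0.10, the smallest that 3 libraries against 3 allow, and 0.15 after Benjamini-Hochberg adjustment over 6 ratios.

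*POLR3D* and *POLR3E* encode RPC4 and RPC5, the TFIIF-like dimer of polymerase III, and both rose. *POLR3E* (ENSG00000058600, chromosome 16, 22297375 to 22335103) had 36.9, 33.9 and 32.1 CPM in sgCtrl against 48.8, 51.6 and 50.7 CPM in sg*NF2*-1, without overlap (log2 fold change 0.55 ± 0.10 SE, adjusted p = 7.3e-05, edgeR). *POLR3D* rose from a mean of 23.8 to 31.4 CPM (log2 fold change 0.40 ± 0.11 SE, adjusted p = 0.0053, edgeR). Thus both subunits of the TFIIF-like dimers of polymerases I and III, 4 genes in all, were higher in sg*NF2*-1. The rise was not particular to these enzymes, as both genes of TFIIF itself, a general factor of polymerase II, also rose. The log2 fold changes were 0.36 for *GTF2F1* and 0.35 for *GTF2F2* (adjusted p = 0.0011 and 0.0071, edgeR). Neither large catalytic subunit of polymerase III passed the test. *POLR3A* had 37.8, 35.5 and 41.8 CPM in sgCtrl against 45.1, 44.9 and 41.9 CPM in sg*NF2*-1, just separate, with a log2 fold change of 0.20 ± 0.10 (SE, adjusted p = 0.12, edgeR). *POLR3B* had a mean of 11.6 ± 1.54 CPM in sgCtrl against 11.9 ± 0.39 CPM in sg*NF2*-1 (SD, n = 3), and the small subunit *POLR3K* had 21.5 CPM in both groups.

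**Figure D2:**
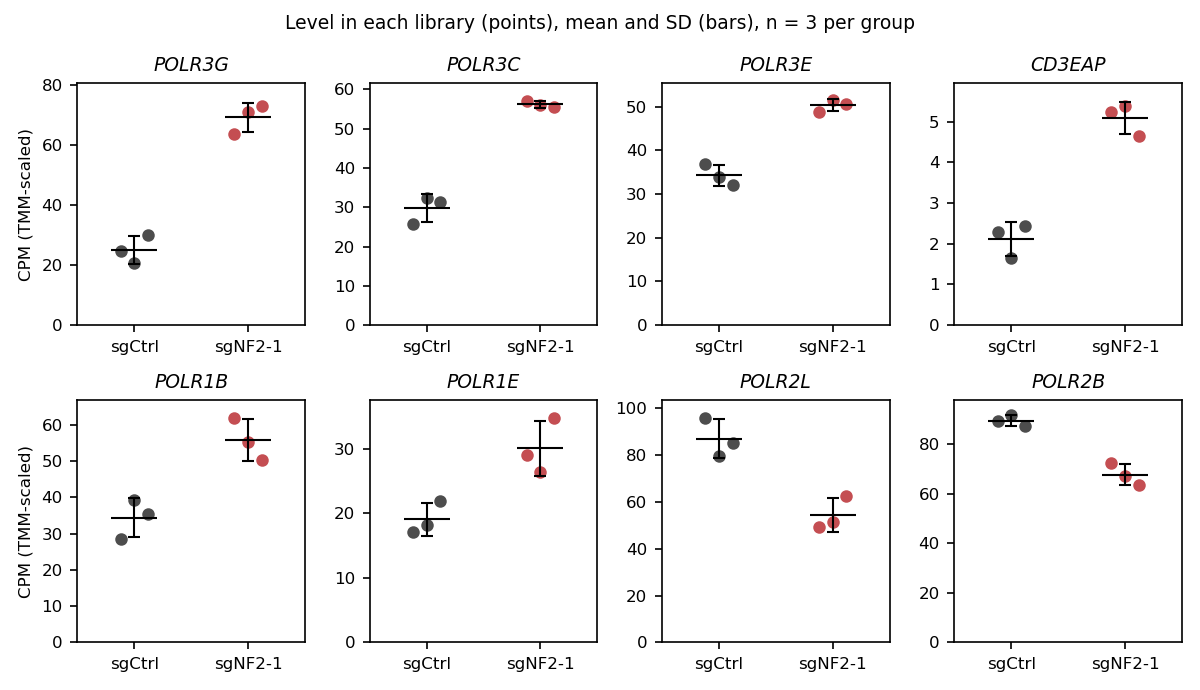
Each panel plots the CPM of 1 gene in the 3 sgCtrl and 3 sg*NF2*-1 libraries as points, with the mean and SD as bars and the vertical axis starting at 0. In the 6 genes that rose the sg*NF2*-1 points all lie above the sgCtrl points, and in *POLR2L* and *POLR2B* they all lie below.

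Of the 10 polymerase III factors, 2 were higher and 0 lower, a share of 20% beside the 17.7% of all genes called as higher. *GTF3C5*, a subunit of TFIIIC, which binds the internal promoters of transfer RNA genes, had 68.5, 71.5 and 79.4 CPM in sgCtrl against 90.1, 100 and 105 CPM in sg*NF2*-1 (ENSG00000148308, chromosome 9, 133030675 to 133058503). The groups did not overlap (log2 fold change 0.43 ± 0.09 SE, adjusted p = 0.00053, edgeR). The other TFIIIC subunits *GTF3C1*, *GTF3C2*, *GTF3C3*, *GTF3C4* and *GTF3C6* had log2 fold changes from -0.09 to 0.09, and none passed. *MAF1*, the repressor of polymerase III, had 109, 101 and 112 CPM in sgCtrl against 122, 128 and 164 CPM in sg*NF2*-1. Its groups were separate, with replicate 3 of sg*NF2*-1 well above the other 2 (log2 fold change 0.37 ± 0.10 SE, adjusted p = 0.0046, edgeR). Without that library the log2 fold change of *MAF1* was 0.23 (adjusted p = 0.039, edgeR). Among the 20 tested genes nearest to *MAF1*, 9 were higher and 0 lower, with a median log2 fold change of 0.29.

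TFIIIB places polymerase III at the start site and contains *BDP1* with either *BRF1* or *BRF2*, the latter used at genes such as U6. *BRF1* had 22.5, 19.1 and 18.0 CPM in sgCtrl against 23.8, 21.3 and 23.7 CPM in sg*NF2*-1 (log2 fold change 0.21 ± 0.12 SE, adjusted p = 0.19, edgeR). *BRF2* had 18.8, 20.2 and 22.1 CPM in sgCtrl against 21.3, 23.8 and 25 CPM in sg*NF2*-1 (log2 fold change 0.20 ± 0.12 SE, adjusted p = 0.20, edgeR). *ADGRA2*, on the opposite strand, shares 59.0% of the exonic bases of *BRF2* and averaged 18.2 counts per library. Both *BRF1* and *BRF2* overlapped between groups, and *BDP1* had an interval of -0.40 to 0.05. The ratio of *BRF2* to *BRF1* FPKM was 4.96 ± 0.94 in sgCtrl and 4.88 ± 0.55 in sg*NF2*-1 (SD, n = 3). Its log2 difference was -0.01 ± 0.19 (SE), with a two-sided exact permutation p of 0.90. The size of this ratio depends on the gene lengths behind FPKM, 2760 bases for *BRF2* and 13167 for *BRF1*. In CPM their sgCtrl means were alike, at 20.4 and 19.9.

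Both large subunits of polymerase II had log2 fold changes below 0, and 1 of them passed the test. *POLR2A*, the largest subunit, whose C-terminal repeats carry the phosphorylation marks of the transcription cycle, had 66.0, 71.2 and 56.8 CPM in sgCtrl against 51.4, 61.2 and 56.2 CPM in sg*NF2*-1. The groups overlapped (log2 fold change -0.20 ± 0.10 SE, adjusted p = 0.11, edgeR). *POLR2B*, the second largest, fell from 89.3, 91.6 and 87.4 CPM to 72.2, 67.0 and 63.6 CPM, with no overlap (log2 fold change -0.40 ± 0.08 SE, adjusted p = 0.00061, edgeR). *NOA1* and *IGFBP7*, on the opposite strand, share 12.4% of its exonic bases together. *POLR2D*, which with *POLR2G* forms the dissociable stalk, rose from a mean of 41.6 to 52.6 CPM (log2 fold change 0.34 ± 0.09 SE, adjusted p = 0.0065, edgeR), while *POLR2G* had an interval of -0.10 to 0.29. *POLR2C*, *POLR2I* and *POLR2J* had log2 fold changes of 0.13, 0.26 and 0.09, and none passed. *POLR2I* shares 79.6% of its exonic bases with genes on the opposite strand.

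Of the 7 shared subunits, 2 rose and 1 fell. *POLR1C* and *POLR1D*, the assembly dimer that polymerases I and III share, both rose: *POLR1C* had 28.4, 25.4 and 30.2 CPM in sgCtrl against 40.7, 38.6 and 38.2 CPM in sg*NF2*-1 (log2 fold change 0.49 ± 0.10 SE, adjusted p = 0.0007, edgeR). *POLR1D* had 98.8, 107 and 118 CPM in sgCtrl against 138, 146 and 145 CPM in sg*NF2*-1 (log2 fold change 0.41 ± 0.08 SE, adjusted p = 0.00054, edgeR). Neither gene's groups overlapped. *XPO5*, on the opposite strand, shares 6.27% of the exonic bases of *POLR1C* and had a log2 fold change of 0.75. Of the 20 tested genes nearest to *POLR1C*, 7 were higher and 0 lower, beside 17.7% and 16.6% of all genes. Their median log2 fold change was 0.11. In polymerase II the corresponding places are taken by *POLR2C* and *POLR2J*. Per length, *POLR1C* stood at 0.2003, 0.181 and 0.196 of the *POLR2C* level in sgCtrl and 0.257, 0.261 and 0.222 in sg*NF2*-1. The FPKM ratio of *POLR1D* to *POLR2J* was 0.663, 0.652 and 0.725 in sgCtrl and 0.866, 0.852 and 0.819 in sg*NF2*-1. Both ratios were higher in every sg*NF2*-1 library. They were chosen after the values were seen and carry no test. The near-identical copies *POLR2J2*, *POLR2J3* and *POLR2J4* held up to 52 counts per entry and library, beside 284 to 338 for *POLR2J*. How reads were divided among these genes was not tested.

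Of the 5 subunits common to all 3 enzymes, 1 fell and 4 did not pass. *POLR2L* (RPB10; ENSG00000177700, chromosome 11, minus strand, 837356 to 842545) had 1514, 1310 and 1294 counts in sgCtrl and 864, 795 and 891 in sg*NF2*-1. In CPM these were 96.1, 79.8 and 85.3 against 49.1, 51.5 and 62.6, with no overlap and a 1.60-fold lower level (log2 fold change -0.68 ± 0.10 SE, adjusted p = 7.6e-06, edgeR). *CD151*, on the opposite strand, shares 22.5% of its exonic bases, averaged 10184 counts per library and itself fell (log2 fold change -0.34). Among the 20 tested genes nearest to *POLR2L*, 1 was higher and 6 lower, beside 17.7% and 16.6% of all genes. Their median log2 fold change was -0.14. *POLR2E*, *POLR2F*, *POLR2H* and *POLR2K* had log2 fold changes of 0.11, 0.14, 0.04 and -0.09, and all 4 overlapped between the groups.

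By their medians, levels per gene length placed the polymerase II subunits above those of polymerases I and III. These levels depend on the gene length used, such as 1067 bases for *GTF3C6* and 13519 for *POLR1A*. In FPKM, the median over the 7 polymerase II subunits was 14.4 in sgCtrl and 14.2 in sg*NF2*-1, over the 6 polymerase I subunits 4.43 and 5.56, and over the 9 polymerase III subunits 4.07 and 4.99. In sgCtrl, *POLR2L* had the highest level of all members (72.2 ± 6.83 FPKM, SD, n = 3), above *POLR2E* (43.6 ± 1.39) and *MAF1* (42.7 ± 2.23), which did not differ beyond their spread. In sg*NF2*-1 the highest were *MAF1* (54.5 ± 8.73 FPKM), *POLR2E* (46.7 ± 5.62) and *POLR2L* (44.7 ± 5.84), whose ranges of mean ± SD overlapped. The lowest members in FPKM were *CD3EAP* (0.549 ± 0.108 FPKM in sgCtrl, 1.303 ± 0.103 in sg*NF2*-1) and *BRF1* (1.43 ± 0.17 and 1.64 ± 0.10). In CPM, *BRF1* (mean 19.9 in sgCtrl, 13167 bases) was above *POLR3GL* (5.25, 1799 bases). *POLR3G* moved from place 26 of 45 (5.93 ± 1.09 FPKM) to place 11 (16.2 ± 1.16 FPKM), and *POLR3C* from place 16 to place 9. *POLR2A* went from place 20 to place 29.

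**Figure D3:**
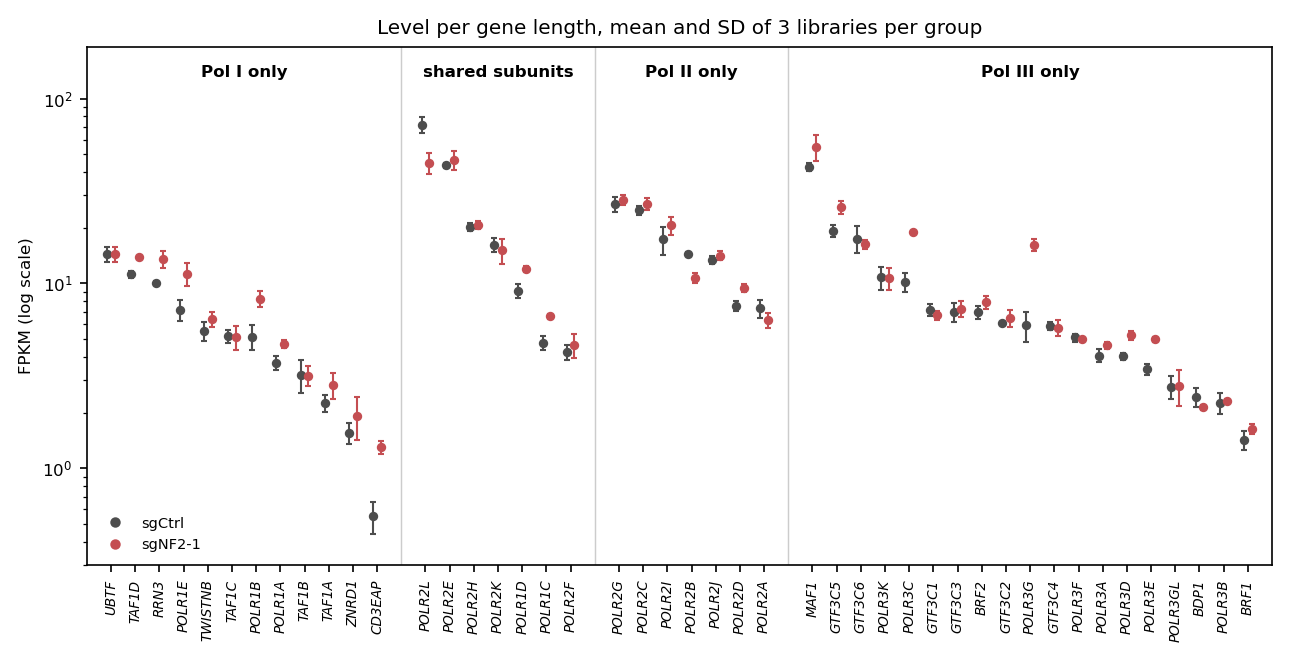
The plot shows the mean FPKM of each member on a log axis with the SD of 3 libraries, sgCtrl in grey and sg*NF2*-1 in red, ordered within each group by the sgCtrl level. Polymerase II subunits span 7.33 to 26.8 FPKM in sgCtrl, whereas polymerase III subunits span 2.26 to 10.8 FPKM.

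The FPKM of the large subunit genes of polymerases I and III was divided by that of the polymerase II genes within each library. These ratios compare RNA levels and do not measure the amount or activity of the enzymes. The FPKM ratio of *POLR1A* to *POLR2A* was 0.493, 0.499 and 0.531 in sgCtrl and 0.797, 0.724 and 0.717 in sg*NF2*-1, a log2 difference of 0.55 ± 0.06 (SE). The ratio of *POLR1B* to *POLR2B* was 0.299, 0.401 and 0.376 in sgCtrl and 0.799, 0.770 and 0.737 in sg*NF2*-1, a log2 difference of 1.11 ± 0.13. The groups were separate in both ratios. Both differences also contain the change of the denominator, a log2 fold change of -0.20 for *POLR2A*, which did not pass, and -0.40 for *POLR2B*. The ratio of *POLR3B* to *POLR2B* was 0.170, 0.130 and 0.173 in sgCtrl and 0.209, 0.211 and 0.225 in sg*NF2*-1, also separate (log2 difference 0.46 ± 0.14 SE). In this ratio *POLR2B* fell, while *POLR3B* did not pass the test. Each of these 3 ratios had a two-sided exact permutation p of 0.10, the smallest this design allows, and 0.15 adjusted over 6 ratios. The ratio of *POLR3A* to *POLR2A* overlapped between groups, at 0.536, 0.467 and 0.689 in sgCtrl and 0.822, 0.688 and 0.699 in sg*NF2*-1 (exact permutation p = 0.20, adjusted 0.24).

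Sequences in front of the members were searched for the E-box bound by MYC and related factors (CACGTG), the core of the site bound by TEAD factors, through which the Hippo pathway acts (GGAATG), and an element of ATF4 (TTGCATCA), on both strands. The windows, from RefSeq on GRCh38.p14, run from 250 bases before to 50 bases after the annotated start. Of the 45 members, 36 matched. The higher members *POLR3G*, *POLR1E*, *POLR3D* and *MAF1* had no window, so they were not searched. The E-box was found in 3 of 11 higher members, 0 of 2 lower members and 4 of 23 members that did not pass. Together 19.4% of matched members had it in any of their windows. So did 12.7% of the tested genes with a window and 8.77% of all 27305 genes with one. Of all 35116 single windows, 7.26% had it. The TEAD core was in 0 of the 11 higher members searched and 8.33% of matched members. It was in 14.99% of tested genes, 16.7% of all genes with a window and 14.0% of single windows. Sites outside the windows, such as enhancers, were not searched, and 11 members are few to set beside these shares. The ATF4 element was in 0 of the 36, against 0.657% of tested genes, 1.08% of all genes with a window and 0.866% of single windows. The 7 E-boxes are printed with 12 bases on either side, in the direction of the gene and with the motif in capitals, to show that higher members and members that did not pass carry the same letters.
*CD3EAP*, higher, chr19:45406620-45406649, plus strand: cccctttggatcCACGTGgtctgcaacctg
*POLR3C*, higher, chr1:145823992-145824021, plus strand: gcccgcgtcggtCACGTGagttggccaggc
*POLR3E*, higher, chr16:22297396-22297425, plus strand: cccgctccccccCACGTGtccgccggagtt
*POLR3A*, not passed, chr10:78029533-78029562, minus strand: agaggaagcggaCACGTGggacactctacg
*GTF3C2*, not passed, chr2:27356850-27356879, minus strand: ccggaccaagcaCACGTGtttaccttgtgc
*GTF3C4*, not passed, chr9:132669988-132670017, plus strand: ggcccgggacccCACGTGggacgcgcgagg
*GTF3C6*, not passed, chr6:110958552-110958581, plus strand: gtggcgagtctcCACGTGggtaccggcgct
Counted from the RefSeq start, the E-box began at position -12 for *CD3EAP*, at position -196 for *POLR3C* and at position -1 for *POLR3E*, whose motif runs across the start. In the members that did not pass it began at -35 in *POLR3A* and *GTF3C4*, -103 in *GTF3C2* and -142 in *GTF3C6*. The RefSeq start lies 0 to 435 bases inside the GENCODE gene for these 7 members, 435 for *CD3EAP* and 34 for *POLR3E*. The printed stretches of *POLR3C* and *GTF3C4* are upstream of the GENCODE gene, and the other 5 lie wholly or partly in it.

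Genes that work with the polymerases gave the surroundings of these results. Of 6 other subunits and factors of polymerases I and III, 4 were higher and 0 lower, among them *CRCP*, the polymerase III subunit RPC9 (log2 fold change 0.52 ± 0.09 SE), and *GTF3A*, the 5S rRNA gene factor TFIIIA (0.31 ± 0.09). The list of 6 also holds *POLR2M*, a polymerase II subunit that was among the 4 higher (0.23 ± 0.08). Of 15 tested general factors of polymerase II, 4 were higher, led by the TFIIH subunits *ERCC2* (0.86 ± 0.10) and *CDK7* (0.62 ± 0.09), and 1 was lower, *GTF2B*, the TFIIB gene (-0.48 ± 0.14). The counts for TFIID subunits were 2 higher and 1 lower of 13, with *TAF9* at 0.52 ± 0.11, *TAF6* at 0.35 ± 0.11 and *TAF13* at -0.35 ± 0.11. Mediator, the bridge between activators and polymerase II, had 8 of 30 subunits higher and 0 lower, with *MED10* (0.68 ± 0.09) and *MED12* (0.50 ± 0.13) at the top. These shares were 26.7% and 15.4% higher for Mediator and TFIID, beside 17.7% of all genes.

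Among 17 tested pausing and elongation factors of polymerase II, 5 were higher (29.4%, beside 17.7% of all genes) and 1 lower (5.88%, beside 16.6%). *TCEA1*, the elongation factor TFIIS that rescues stalled polymerase, had a log2 fold change of 1.00 ± 0.08 (SE) and rose from 96.8 ± 5.99 to 194 ± 2.86 CPM (SD, n = 3; adjusted p = 7.1e-10, edgeR). The pausing factor *NELFA* had 0.59 ± 0.09, and *RTF1*, of the PAF1 complex, had -0.35 ± 0.09. Of 11 polymerase assembly factors, 2 were higher, the paired ATPases *RUVBL1* (0.56 ± 0.08) and *RUVBL2* (0.50 ± 0.09), and 1 was lower, the GTPase *GPN3* (-0.31 ± 0.12), so that 18.2% were higher, near the share of all genes. Of 5 subunits of the snRNA-activating complex, *SNAPC2* (0.46 ± 0.10) and *SNAPC1* (0.35 ± 0.12) were higher and 0 lower. Of 5 genes of mitochondrial transcription, *POLRMT*, the mitochondrial RNA polymerase (0.47 ± 0.08), and *TFB2M*, its initiation factor (0.45 ± 0.12), were higher and 0 lower. The median log2 fold changes of these 8 lists ran from 0.01 for TFIID to 0.25 for the list of 6 that includes *POLR2M*, beside -0.0025 for all tested genes.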

How the data were processed

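RNA of 6 H2452 libraries (3 sgCtrl, 3 sg*NF2*-1, grouped by sample title) was analysed from 2 tables. The authors deposited one table of raw counts, without normalization, and one of FPKM, whose values equal the count divided by gene length and 1 depth per library. The submitters' processing notes name HISAT2, StringTie 1.3.3b, featureCounts 1.5.0-p3 and hg38, and the strand setting is not given in the sources used here. The total counts, 14782423 to 17416463 per library, limit the precision for low genes such as *CD3EAP*.

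Counts were filtered with filterByExpr (minimum count 10, minimum total 15), scaled by TMM and fitted in R 4.3.3 with edgeR 4.0.16 (quasi-likelihood test, group as the only term). P-values were adjusted by Benjamini-Hochberg over 14179 genes, and an adjusted p under 0.05 was a call. SE is the log2 fold change over the root of its F statistic. CPM are TMM-scaled. Log2 FPKM ratios were compared by two-sided exact permutation tests (SciPy 1.17.1). Gene positions and overlaps are those of GENCODE release 29. Full values are given for members called with a log2 fold change beyond 0.5, for the next by adjusted p up to 8, and for 10 preset genes; of related lists, the 2 largest called changes in each direction are named. Further values were chosen after they were seen. The members and lists were chosen with earlier results of these data known. Alternatives were DESeq2 1.42.0, other scalings, filters and call rules, a replicate block and leaving out each library. The procedure was tested on simulated counts.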

Additional observations from a re-analysis of the deposited data

How the results depend on the processing

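All 17 calls among members kept direction and threshold under DESeq2, DESeq2 size factors, library totals, the replicate block, a minimum of 10 counts per library, no filter and without each library; of 552 values of members and *NF2*, 517 did, 5 passed only in an alternative and 30 turned sign, all uncalled. Of the called members, *MAF1* moved by over 1.5 times in 1 case, to 0.23 without sg*NF2*-1 replicate 3. Without sgCtrl replicate 3, *TWISTNB* (0.32), *POLR2A* (-0.28) and *POLR3A* (0.27) passed, as did *POLR2I* (0.41) without sgCtrl replicate 1 and *TAF1A* (0.47) without sg*NF2*-1 replicate 3. Leaving out 1 library gave 15 to 17 members higher and 2 to 3 lower (polymerase I 6 to 7 and 0, polymerase II 1 to 2 and 1 to 2, polymerase III 6 to 7 and 0, shared 2 and 1), and 2016 to 2514 of all genes higher and 1880 to 2271 lower. With a log2 fold change beyond 0.5, by adjusted or unadjusted p, 6 members were higher and 1 lower (polymerase I 3, polymerase II 0 and 0, polymerase III 3, shared 0 higher); for all genes the counts were 1194 and 1322 (adjusted) or 1308 and 1531 (unadjusted).

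Members that did not pass turned sign as follows. *POLR3K* had log2 fold changes of -0.00097 with DESeq2, -0.0015 with its size factors, -0.029 with library totals, -0.0065 with at least 10 counts in every library, and -0.069, -0.044 and -0.11 without sgCtrl replicate 2, sgCtrl replicate 3 or sg*NF2*-1 replicate 3. *UBTF* had -0.025 with library totals, -0.0033 with at least 10 counts in every library, and -0.015, -0.048 and -0.061 without the same 3 libraries (0.082 without sgCtrl replicate 1). *TAF1B* had 0.014 with no filter, 0.0079 with the replicate block, and 0.037, 0.13 and 0.092 without sgCtrl replicate 1, sgCtrl replicate 3 or sg*NF2*-1 replicate 3 (-0.15 without sgCtrl replicate 2). *TAF1C* had 0.015 with no filter, 0.062 without sgCtrl replicate 1 and 0.12 without sg*NF2*-1 replicate 2. Without 1 library each, *GTF3C4* ranged from -0.098 to 0.037, *POLR3F* from -0.058 to 0.0085, *POLR3GL* from -0.17 to 0.15, *POLR3B* from -0.062 to 0.11 and *GTF3C3* from -0.022 to 0.15. All lie within the 95% confidence intervals of the values in the report.

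The log2 differences of the ratios, without 1 library each, ranged from 1.29 to 1.72 for *POLR3G* to *POLR3GL*, 0.51 to 0.59 for *POLR1A* to *POLR2A*, 0.98 to 1.197 for *POLR1B* to *POLR2B*, 0.27 to 0.55 for *POLR3A* to *POLR2A*, 0.33 to 0.53 for *POLR3B* to *POLR2B* and -0.16 to 0.12 for *BRF2* to *BRF1* (0.0083, 0.12 and 0.081 without sgCtrl replicate 2, sgCtrl replicate 3 or sg*NF2*-1 replicate 1). Same-numbered libraries did not deviate together (correlations -0.044, 0.091 and 0.071), so the numbers were not taken as pairs. Within both groups replicate 3 was farther from replicates 1 and 2 than these were from each other. In sgCtrl the chi-square per degree of freedom was 5.53 between replicates 1 and 2, and 12.5 and 9.51 against replicate 3. In sg*NF2*-1 it was 5.12, against 9.09 and 9.70. With the replicate block, 15 members were higher and 2 lower, and 2698 and 2501 of all genes. The cause of these changes was not tested.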

Other observations

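Stable products of polymerase III were hardly visible in these libraries. *RN7SL2*, a gene of the signal recognition particle RNA, was counted 1116, 1325 and 123 times in sgCtrl against 243, 176 and 176 times in sg*NF2*-1, so that sgCtrl replicates 1 and 2 stood apart from the other 4 libraries. *RN7SL1*, *RN7SK*, *RMRP*, *RPPH1*, *RNA5S1* and *VTRNA1-1* were listed at 0 counts in all 6 libraries, and *RNU6-1* had 0 to 2 counts. The output of polymerase III was not compared with the levels of its subunits.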
